A study of Mus musculus with 6 samples.

Results

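The genes described here are the 10 members of the MYC, MAX and MXD network that the series was searched for by gene symbol: Myc, Mycn and Mycl of the MYC family, their shared partner Max, and the antagonists Mxd1, Mxd3, Mxd4, Mxi1, Mnt and Mga. All 10 were found among the 21878 rows of each expression table. The tables come from RNA sequencing of 6 libraries of mouse bone marrow cells labelled LT-HSC, the long-term stem cells at the base of blood formation, sorted by a gate negative for lineage antigens, CD34 and CD135 and positive for c-Kit and Sca1. The mice were of WT genotype, and no other allele or agent is named; 3 libraries came from mice on a control diet (CD) and 3 from mice on a serine/glycine-free diet (SGFD), each eaten for 3 months. Whether a library stands for 1 mouse or a pool is not given in the sources used here, nor are age and strain, so the p-values measure the spread between these libraries, which may be partly technical.

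MYC proteins are basic helix-loop-helix leucine zipper transcription factors that bind DNA as heterodimers with MAX, at E-box sequences such as CACGTG, and promote genes of ribosome production, metabolism and cell division. MXD proteins, MXI1, MNT and MGA compete for the same partner: the MXD proteins, MXI1 and MNT recruit SIN3 and histone deacetylases to the same sites, and MGA brings MAX into a Polycomb-type repressor complex. In blood stem cells Myc and Mycn are both expressed and can stand in for each other in part, and the balance between MYC and its antagonists is known for its role in the choice between self-renewal, proliferation and differentiation.

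The values are FPKM, fragments scaled by gene length and by the depth of the library, a unit inferred from the values. After scaling by relative library size, the values of nearly all genes are whole multiples of a step per gene. The steps gave 18205830 to 19301447 fragments per library. The fragment numbers below are these multiples and hold up to a whole factor per gene. The test covered the 10618 genes that reached 1 FPKM in 3 libraries or more, on log2(FPKM + 1), a scale that understates the change of low genes; folds and percentages below are ratios of mean FPKM. The median tested gene had a log2 fold change of -0.13. The markers of the labelled cells differed between the diets: of 9 tested LT-HSC markers 7 fell with SGFD, their sum over 10 genes going from between 180.0 and 186 to between 102 and 107 FPKM, while 6 of 7 granulocyte-monocyte progenitor markers rose, from a sum of 883 to 911 to one of 3459 to 3841 FPKM. All 7 monocyte markers rose, and their sum went from 71.9 to 72.4 up to 243 to 252 FPKM. The sum of 8 mature neutrophil markers went from 12.8 to 13.1 up to 26.9 to 29.4 FPKM; 5 were tested and rose, of which Camp and Cxcr2 passed the filter through the SGFD libraries alone. Erythroid markers fell in 3 of 4 tested cases (216 to 222 against 97.0 to 103 FPKM). The sum of macrophage markers was 8.93 to 10.4 with CD and 1.71 to 2.35 FPKM with SGFD, and that of B cell markers 27.8 to 37.2 and 25.5 to 26.4 FPKM. All 5 tested macrophage markers, and Cd79a and Igll1 of the 4 tested B cell markers, passed the filter through the CD libraries alone, and a gene so chosen had to be lower with SGFD. Megakaryocyte markers had 1 rise and 2 falls in 5 (97.5 to 99.97 against 69.7 to 71.0 FPKM), and the T and NK cell list had 1 tested gene, Nkg7, which rose, with Cd3e at 0 in all libraries. Cd34 and Flt3 (CD135), which the gate selects against, were abundant, at 471 ± 15.4 and 114 ± 1.19 FPKM with CD and 429 ± 8.58 and 90.5 ± 3.72 FPKM with SGFD. Kit and Ly6a (Sca1), which the gate selects for, had 122 ± 0.843 and 66.7 ± 2.89 FPKM with CD. With SGFD they had 71.4 ± 2.06 and 58.5 ± 4.89 FPKM. All 4 gate antigens were lower past the threshold, as were 41.8% of all tested genes. Their log2 fold changes were -0.76 for Kit, -0.33 for Flt3, -0.19 for Ly6a and -0.13 for Cd34. That of Cd34 equals the median tested gene. In such bulk samples fewer cells of a type and less RNA per cell cannot be told apart, and the part of these shifts in the results below was not tested.

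Of the 10 members, 9 had at least 1 FPKM in all 6 libraries and were tested, and Mycl was below the filter. Compared with CD, 6 of the 9 fell with SGFD and none rose, by limma at an adjusted p under 0.05: Mycn, Mga, Mxd3, Mnt, Mxd4 and Myc. Mycn fell furthest, 3.87-fold, and the mean of Max differed by -0.479%. Among all tested genes 59.4% passed the same threshold, 41.8% lower and 17.6% higher, so a fall is common in this comparison. The 9 members had a median log2 fold change of -0.38, against -0.13 for all genes tested. In the same 6 members the 3 SGFD values lay wholly below the 3 CD values, which was so for 45.5% of all tested genes. Groups that did not overlap made up 65.2% of tested genes in either direction and 19.6% in the higher direction.

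**Figure D1:**
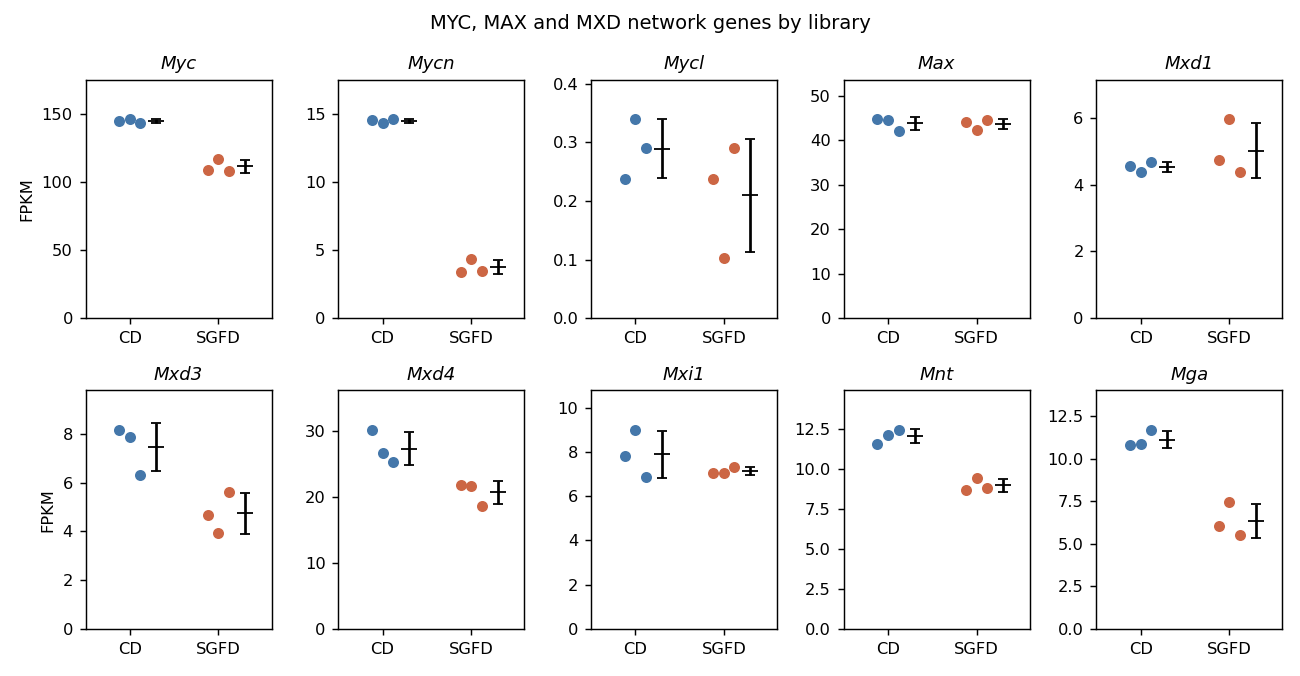
FPKM (y axis, from 0) of each of the 10 members in the 3 CD (blue) and 3 SGFD (orange) libraries, 1 point per library, with the group mean and SD in black beside the points. The groups do not overlap for Myc, Mycn, Mxd3, Mxd4, Mnt and Mga, with the widest gap for Mycn, and they overlap for Mycl, Max, Mxd1 and Mxi1.

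Myc, the broadly expressed member of the family, lies on chromosome 15 from 61985341 to 61990361 in the assembly GRCm38.p6. Its level was 145, 146 and 144 FPKM in CD replicates 1 to 3 and 109, 117 and 108 FPKM in SGFD replicates 1 to 3. Every SGFD library was below every CD library, and the CD libraries differed from each other by little, with an SD of 1.23 FPKM. The mean went from 145 ± 1.23 to 112 ± 4.94 FPKM (SD, n = 3 each) and fell by 23.0% (log2 fold change -0.37 ± 0.04, SE; limma, adjusted p = 5.29e-05). Myc remained the most abundant member with either diet, at a percentile of 96.4 among the means of tested genes with CD and of 94.5 with SGFD. Relative to the median gene its change was -0.24 on the log2 scale, and 22.1% of all tested genes had a lower fold change.

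Mycn, the member known from dormant stem cells and neural tumours, lies on chromosome 12 from 12936093 to 12941836. It had 14.6, 14.4 and 14.6 FPKM in the CD libraries, from 726, 703 and 715 fragments. It had 3.43, 4.35 and 3.48 FPKM in the SGFD libraries, from 171, 226 and 171 fragments. The lowest CD value was more than 3 times the highest SGFD value, and SGFD replicate 2 stood above the other SGFD libraries. The mean went from 14.5 ± 0.143 to 3.76 ± 0.52 FPKM and fell by 74.2% (log2 fold change -1.71 ± 0.09, SE; limma, adjusted p = 2.05e-07). On the log2(FPKM + 1) scale 3 of the 10618 tested genes, Mycn among them, fell this far; by the ratio of mean FPKM, lower genes such as Hmga2 and Hmox1 fell further. Mycn went from the 4th most abundant member with CD, above Mnt and below Mxd4, to the 9th with SGFD, where its values overlapped those of Mxd3.

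The bases before the Mycn start are shown because they hold an 8-base E2F-type sequence, TTTGGCGC, in 2 copies. E2F factors couple transcription to the cell cycle. The stretch runs from chr12:12941977-12942039 on the minus strand, 5′ to 3′, from RefSeq (GRCm38.p6), with both copies in capitals; their first bases lie 183 and 168 bases before the start.
Mycn: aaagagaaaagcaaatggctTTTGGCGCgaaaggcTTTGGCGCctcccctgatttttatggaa
On either strand this sequence was found in 0.514% of the 32851 RefSeq promoter windows of 300 bases. Mycn was the one gene among the 9 members with an entry to hold it. Only this exact sequence was searched, so other E2F-type sequences in the members are not covered. Of 104 tested genes with it, 18.3% rose and 29.8% fell, and their median was -0.05 on the log2 scale. Of the 8174 tested genes without it, 17.7% rose and 42.0% fell, with a median of -0.13. Whether the sequence has a part in the fall of Mycn was not tested.

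By the size and course of their change over the 6 libraries, the tested genes most like Mycn were Hmga2, Car1 and Hmox1. Their log2 values, centred on the CD mean, differed from those of Mycn by a root mean square of 0.05, 0.08 and 0.08. Hmga2 went from 4.88 ± 0.303 to 0.823 ± 0.222 FPKM, Car1 from 14.96 ± 0.222 to 3.67 ± 0.344 FPKM and Hmox1 from 5.69 ± 0.237 to 1.11 ± 0.136 FPKM. Car1 is among the erythroid markers listed above.

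Mycl, the third MYC gene (chromosome 4 from 122995588 to 123002490), was close to the detection limit. It had 0.238, 0.339 and 0.291 FPKM with CD and 0.237, 0.103 and 0.290 FPKM with SGFD. The groups overlapped, and SGFD replicate 2 was lowest. The values rest on 72 fragments in all with CD (95% exact Poisson interval 56.3 to 90.7) and 53 with SGFD (39.7 to 69.3), if a step is 1 fragment, and these intervals cover counting error only. Without the filter on low values Mycl had a log2 fold change of -0.09 ± 0.07 (SE; limma, adjusted p = 0.299), so a difference was not detectable at this depth.

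The summed FPKM of Myc, Mycn and Mycl was 160.1, 161 and 159 in the CD libraries and 113, 122 and 112 in the SGFD libraries. Myc made up most of this sum in each library. The share of Mycn was 9.12%, 8.93% and 9.22% with CD and 3.03%, 3.57% and 3.10% with SGFD, a mean of 9.09% ± 0.147 against 3.24% ± 0.293 (SD, n = 3 each). The groups did not overlap, and within the family the mixture moved towards Myc. These sums are descriptions over chosen genes and were not tested.

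Max, the partner that MYC and its antagonists all need, lies on chromosome 12 from 76937269 to 76962323. It had 44.6, 44.6 and 42.1 FPKM with CD and 44.0, 42.2 and 44.5 FPKM with SGFD. The groups overlapped throughout, with means of 43.8 ± 1.42 and 43.6 ± 1.18 FPKM. Its log2 fold change was -0.01, with a 95% confidence interval of -0.11 to 0.09 (limma, adjusted p = 0.91). This value turns on how the libraries are scaled: Max was higher after median-ratio scaling, at 0.14 (adjusted p = 0.0366), and lower after scaling to one FPKM total, at -0.15 (adjusted p = 0.0125). With the median gene at -0.13, Max stood 0.12 above it.

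The antagonists Mnt and Mga were both lower with SGFD. Mnt, the broadly expressed antagonist that occupies MAX in resting and dividing cells alike, lies on chromosome 11 from 74830806 to 74845725 and had 11.55, 12.1 and 12.4 FPKM with CD and 8.68, 9.42 and 8.78 FPKM with SGFD. All 3 SGFD values were below all 3 CD values, and the mean fell by 25.5%, from 12.03 ± 0.439 to 8.96 ± 0.402 FPKM (log2 fold change -0.39 ± 0.07, SE; limma, adjusted p = 0.00066). Mga, a very large protein with a T-box as well as a helix-loop-helix domain, lies on chromosome 2 from 119872503 to 119970129 and had 10.8, 10.88 and 11.7 FPKM with CD and 6.04, 7.48 and 5.54 FPKM with SGFD. SGFD replicate 2 was again the highest of its group, still below the CD libraries. The mean of Mga fell by 43.0%, from 11.1 ± 0.48 to 6.35 ± 1.01 FPKM (log2 fold change -0.73 ± 0.10, SE; limma, adjusted p = 0.000134). The tested genes closest to Mga in course were Dmxl1, Zfp420 and Rbm5, with root mean square differences of 0.02, 0.02 and 0.03; Zfp420 passed the filter through the CD libraries alone.

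Mxd3 and Mxd4 fell, while Mxd1 and Mxi1 did not pass the threshold. Mxd3, an MXD gene known from dividing cells in S phase, lies on chromosome 13 from 55325170 to 55329900 and had 8.16, 7.88 and 6.34 FPKM with CD and 4.69, 3.93 and 5.62 FPKM with SGFD. The groups did not overlap, but CD replicate 3 and SGFD replicate 3 lay close to each other. The mean of Mxd3 fell by 36.4%, from 7.46 ± 0.981 to 4.74 ± 0.848 FPKM (log2 fold change -0.56 ± 0.12, SE; limma, adjusted p = 0.00243), a call that was lost after quantile normalization (-0.32, adjusted p = 0.0632). It rests on 102 to 203 fragments per library. In GENCODE M21, 105 exonic bases of Mxd3 are shared with Prelid1 on the opposite strand, which averaged 128 FPKM, and the counting is not stated to use strand. The tested genes closest to Mxd3 in course were Pdlim7, Il18 and Tnfrsf13c, with root mean square differences of 0.04, 0.07 and 0.07.

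Mxd4, an MXD gene of differentiating and resting cells on chromosome 5 from 34176580 to 34187710, was the antagonist of highest FPKM with either diet. This rank depends on the gene length used for scaling. Mxd4 had 1829 fragments in all with CD, against 13459 for Mga and 4445 for Mnt, if a step is 1 fragment. It had 30.1, 26.6 and 25.2 FPKM with CD and 21.8, 21.6 and 18.7 FPKM with SGFD. Each SGFD library was below each CD library, and the mean fell by 24.2%, from 27.3 ± 2.51 to 20.7 ± 1.75 FPKM (log2 fold change -0.38 ± 0.08, SE; limma, adjusted p = 0.00189). An antisense gene, Gm42846, which the tables do not list, shares 514 exonic bases with Mxd4.

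Mxd1, the founding antagonist, is known to be induced as granulocytes mature. It lies on chromosome 6 from 86647044 to 86669234 and had 4.54, 4.37 and 4.66 FPKM with CD and 4.73, 5.95 and 4.37 FPKM with SGFD. The groups overlapped, and SGFD replicate 2 alone stood well above the rest. The log2 fold change of Mxd1 was 0.11, with a 95% confidence interval of -0.11 to 0.34 (limma, adjusted p = 0.346). After quantile normalization Mxd1 was higher with SGFD, at 0.37 (adjusted p = 0.00584), and after scaling to one FPKM total it was at 0.00 (adjusted p = 0.978). Granulocyte-monocyte progenitor markers rose in the same libraries, as given above, and a link to Mxd1 was not tested.

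Mxi1, an antagonist close in structure to the MXD proteins, lies on chromosome 19 from 53310128 to 53373293. It had 7.83, 8.98 and 6.85 FPKM with CD and 7.04, 7.03 and 7.33 FPKM with SGFD. The SGFD values lay inside the CD range, and the CD libraries were the more spread, with an SD of 1.06 FPKM. The log2 fold change of Mxi1 was -0.12, with a 95% confidence interval of -0.32 to 0.08 (limma, adjusted p = 0.264). Its sign depended on the scaling: 0.01 after median-ratio scaling, 0.10 after quantile normalization, and -0.25 after scaling to one FPKM total, where it passed (adjusted p = 0.0315). Gm10197, on the opposite strand and not listed in the tables, shares 194 exonic bases with Mxi1.

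**Figure D2:**
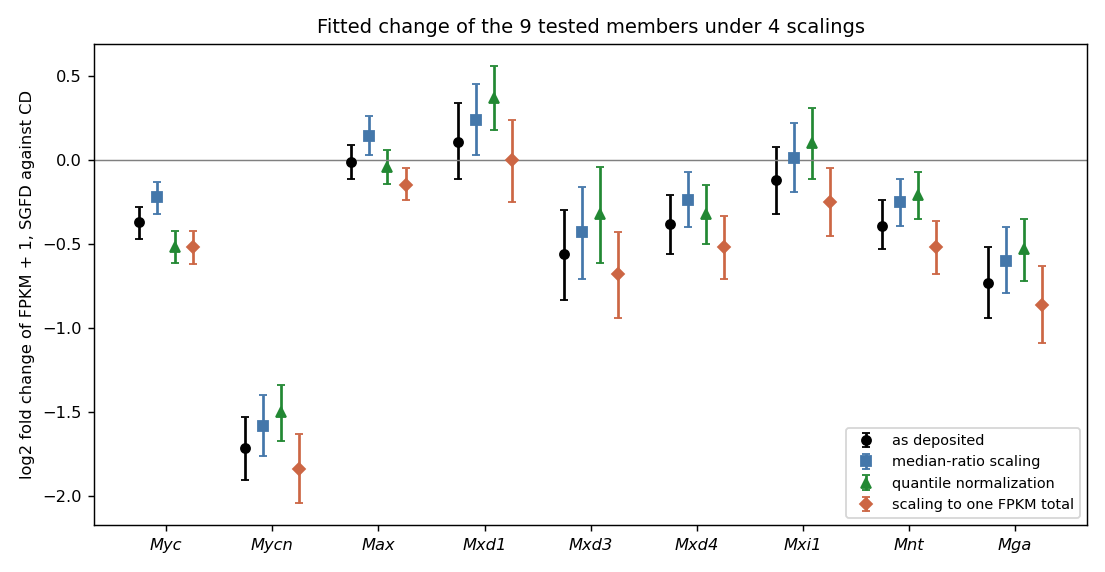
Log2 fold change of FPKM + 1 (y axis, SGFD against CD) of the 9 tested members with 95% confidence intervals from limma, for the values as deposited (black) and after 3 other scalings of the libraries. Mycn lies between -1.84 and -1.50 in all 4, Myc, Mxd3, Mxd4, Mnt and Mga are below 0 in all 4, and Max and Mxi1 change sign.

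The order of levels in the network differed in part between the diets. With CD the order by mean FPKM was Myc, Max, Mxd4, Mycn, Mnt, Mga, Mxi1, Mxd3, Mxd1 and Mycl. Of neighbours in that order, Mnt overlapped with Mga and Mxi1 overlapped with Mxd3, and the other neighbours were separated in these libraries. With SGFD the order was Myc, Max, Mxd4, Mnt, Mxi1, Mga, Mxd1, Mxd3, Mycn and Mycl, and the neighbours from Mxi1 down to Mycn overlapped.

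The summed FPKM of the 6 antagonist genes was 73.0, 70.8 and 67.2 with CD and 53.0, 55.4 and 50.3 with SGFD. Every SGFD sum was below every CD sum, as for the MYC sum. The ratio of the MYC sum to the antagonist sum was 2.19, 2.27 and 2.36 with CD and 2.13, 2.20 and 2.23 with SGFD, means of 2.28 ± 0.0847 and 2.19 ± 0.0501, and the groups overlapped. These are mRNA levels, and the proteins, which are short-lived in the case of MYC, were not measured here.

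**Figure D3:**
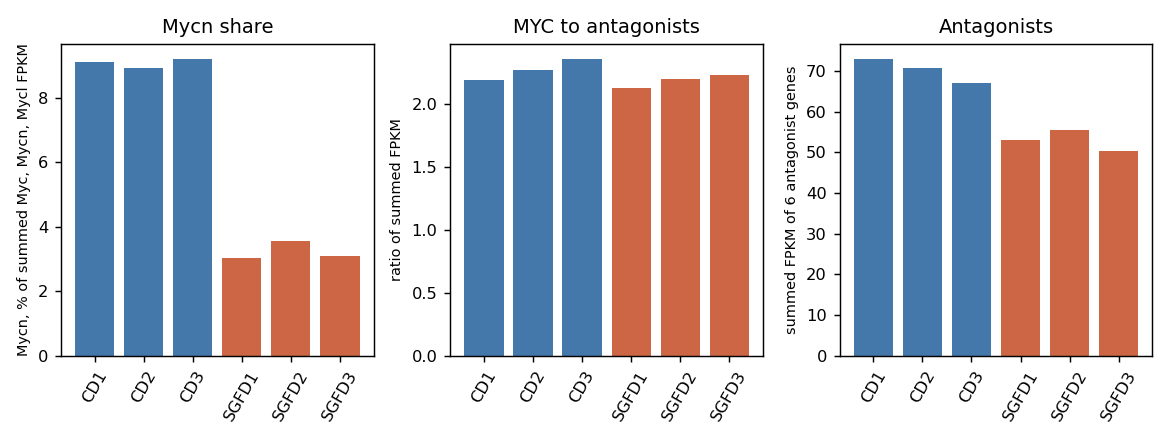
Bars from 0, 1 per library (CD blue, SGFD orange): the Mycn share of summed Myc, Mycn and Mycl FPKM in percent, the ratio of summed MYC to summed antagonist FPKM, and the summed FPKM of Mxd1, Mxd3, Mxd4, Mxi1, Mnt and Mga. The Mycn share drops from about 9.09% to 3.24%, the antagonist sum is lower in each SGFD library, and the ratio stays between 2.13 and 2.36.

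Transcript length moved with the diet effect, so the members were placed among tested genes whose longest annotated transcript was of like length. In the longest decile of tested genes by longest annotated transcript, which holds Mga, the median log2 fold change was -0.38 and 797 of 1029 genes fell. Mga was at -0.73, with 9.52% of that decile below it. Mnt and Mxd4, both in decile 8, were at -0.39 and -0.38 where the median was -0.21, and 22.6% and 23.4% of that decile were below them. Mxd1 and Mxi1 fall in the same decile, with 90.8% and 63.7% of its genes below them. Myc (decile 3, median -0.03) had 12.2% of its decile below it and Mxd3 (decile 2, median 0.03) had 3.98%. Mycn, in decile 4 with a median of -0.07, had the lowest log2 fold change of the 1029 genes there. For some members the length implied by FPKM and fragment numbers differed from the longest transcript. It was 1219 against 4627 bases for Mxd4, 6728 against 4590 for Mnt and 6822 against 5036 for Mxi1. For Mxd3 it was 1344 against 1742, for Max 2672 against 1942 and for Myc 2481 against 2338. Decile 1 ends at 1404 bases, with a median of 0.13, and decile 10 begins at 6717, with one of -0.38. Decile 4 begins at 2461 bases, with a median of -0.07. The placing of all these genes in their deciles thus depends on the length used. The part of length in these changes was not tested.

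**Figure D4:**
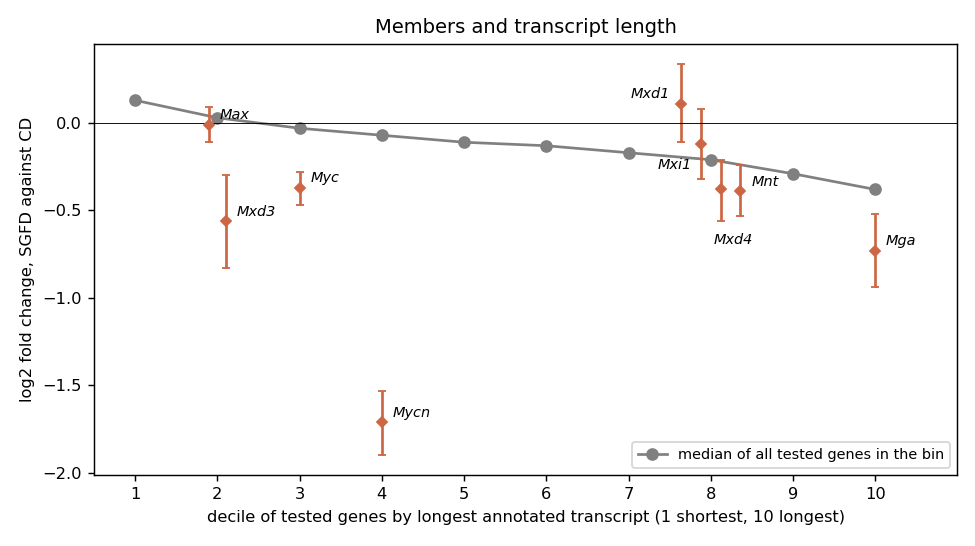
Log2 fold change (y axis, SGFD against CD) against the decile of tested genes by longest annotated transcript (x axis, 1 shortest to 10 longest); the grey line is the median of all tested genes in each decile and the diamonds are members with 95% confidence intervals, set side by side within a decile. Mycn and Mxd3 lie far under the grey line, Max lies near it, and Mga lies under the lowest point of the line, -0.38.

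Around the network, 5 lists of partner genes held 48 genes, of which 47 were tested; 6 rose and 18 fell, near the shares of 17.6% higher and 41.8% lower among all tested genes. The counts of the single lists below are to be read against the same shares. The lists were written down with earlier results of these data known. The MLX arm is a parallel network in which the glucose-sensing factor MondoA, the product of Mlxip, pairs with MLX. Mlxip fell from 16.1 ± 1.02 to 10.2 ± 1.03 FPKM (log2 fold change -0.62), whereas Mlx had 10.6 ± 0.224 and 10.7 ± 0.63 FPKM and passed only after quantile normalization (0.18, adjusted p = 0.0372 with limma), and Mlxipl was below the filter. Both MondoA targets listed, the arrestin-type genes Txnip and Arrdc4, fell, with log2 fold changes of -1.46 and -0.48, though Arrdc4 did not pass after quantile normalization (adjusted p = 0.134 with limma).

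Among 12 MYC cofactors 1 rose and 4 fell, no larger a part than the 17.6% and 41.8% of all tested genes. Trrap, the scaffold of histone acetyltransferase complexes that MYC recruits, fell from 16.4 ± 0.819 to 9.89 ± 0.83 FPKM, and Ep400, a chromatin remodeller of the same complexes, from 32.1 ± 0.114 to 23.8 ± 0.379 FPKM. The helicase gene Ruvbl2 rose from 72.4 ± 0.78 to 86.4 ± 2.94 FPKM. Among 12 corepressor genes of the MXD side 2 rose and 4 fell: Ncor1 went from 35.7 ± 0.625 to 27.2 ± 0.965 FPKM, while Brms1 and Sap30, subunits of SIN3 complexes, rose by 0.24 and 0.16 on the log2 scale. These counts too are near or below the shares of all tested genes. Neither rise passed after scaling to one FPKM total (adjusted p = 0.229 and 0.766 with limma). The rise of Brms1 was also lost without the filter on low values (0.0528) and without CD replicate 1 or 3 or SGFD replicate 1 or 3 (0.0507 to 0.0841), and that of Sap30 without CD replicate 2 or 3 or SGFD replicate 2 (0.0546 to 0.0768).

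Of 10 other genes of the MGA complex 1 rose and 5 fell. Tfdp2 and Yaf2 fell by 0.46 and 0.36 on the log2 scale, and Tfdp1, which encodes the other E2F partner, rose by 0.11, a call that most alternatives ended. Of 11 genes of MYC protein turnover 2 rose and 4 fell. Huwe1, a large ubiquitin ligase, fell from 48.7 ± 1.18 to 33.0 ± 2.11 FPKM, and the deubiquitinase gene Usp28 from 6.82 ± 0.546 to 4.28 ± 0.473 FPKM. Fbxw7, the ligase subunit that reads phosphorylated MYC, fell from 2.83 ± 0.29 to 2.01 ± 0.29 FPKM, though not after median-ratio scaling (adjusted p = 0.0565 with limma) or quantile normalization (0.528); it was named after its values were seen. Aurka, a kinase that stabilises the Mycn protein, rose from 22.4 ± 1.44 to 28.4 ± 2.54 FPKM, a rise that did not pass after scaling to one FPKM total (adjusted p = 0.0567 with limma). For the 47 partners together, the median log2 fold change was -0.09 against -0.13 for all genes tested, and the split of 6 higher and 18 lower became 17 and 11 after median-ratio scaling and 1 and 31 after scaling to one FPKM total. All tested genes split into 3169 higher and 2711 lower after median-ratio scaling, 53.9% higher in place of 29.7%, and 1030 and 6351 after scaling to one FPKM total.

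Genes that MYC is known to activate were mostly higher with SGFD, in the libraries in which Myc and Mycn were lower. Of 37 listed, all tested, 24 rose and 2 fell, beside 17.6% higher and 41.8% lower among all genes, and their median was 0.22 on the log2 scale. Npm1 (nucleophosmin, a nucleolar chaperone) rose from 896 ± 16.7 to 1252 ± 29.7 FPKM, and Tfrc, the transferrin receptor gene, from 19.2 ± 1.52 to 40.6 ± 4.37 FPKM. Nucleolin (Ncl) and ornithine decarboxylase (Odc1), classical targets named after their values were seen, rose by 0.41 and 0.46 on the log2 scale. The 2 that fell were Ccnd2 (cyclin D2), from 46.3 ± 1.51 to 31.4 ± 1.56 FPKM, and the telomerase gene Tert, from 1.76 ± 0.379 to 0.662 ± 0.104 FPKM; Tert passed the filter through its CD libraries alone. After median-ratio scaling 30 rose and 2 fell, after quantile normalization 18 rose and 4 fell, and after scaling to one FPKM total 16 rose and 7 fell. The 37 genes have a median longest transcript of 2923 bases, and their median change was 0.30 above that of the tested genes in their own decile of length. The part of the marker shifts given above in these changes was not tested.

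Of 9 genes that MYC is known to repress, 8 were tested, 2 rose and none fell, beside 17.6% and 41.8% among all genes; after scaling to one FPKM total 2 rose and 3 fell, and after quantile normalization 3 rose and 1 fell. The cell cycle inhibitor gene Cdkn1a rose from 29.1 ± 2.25 to 91.5 ± 11.3 FPKM and the stress gene Gadd45b from 11.5 ± 1.14 to 26.4 ± 6.82 FPKM. Other inhibitor genes, named after their values were seen, did not pass: Cdkn1b had 29.3 ± 1.36 and 28.4 ± 5.12 FPKM, and Cdkn2c 15.5 ± 1.2 and 16.3 ± 2.69 FPKM. Cdkn2b was listed at 0 in all 6 libraries.

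**Figure D5:**
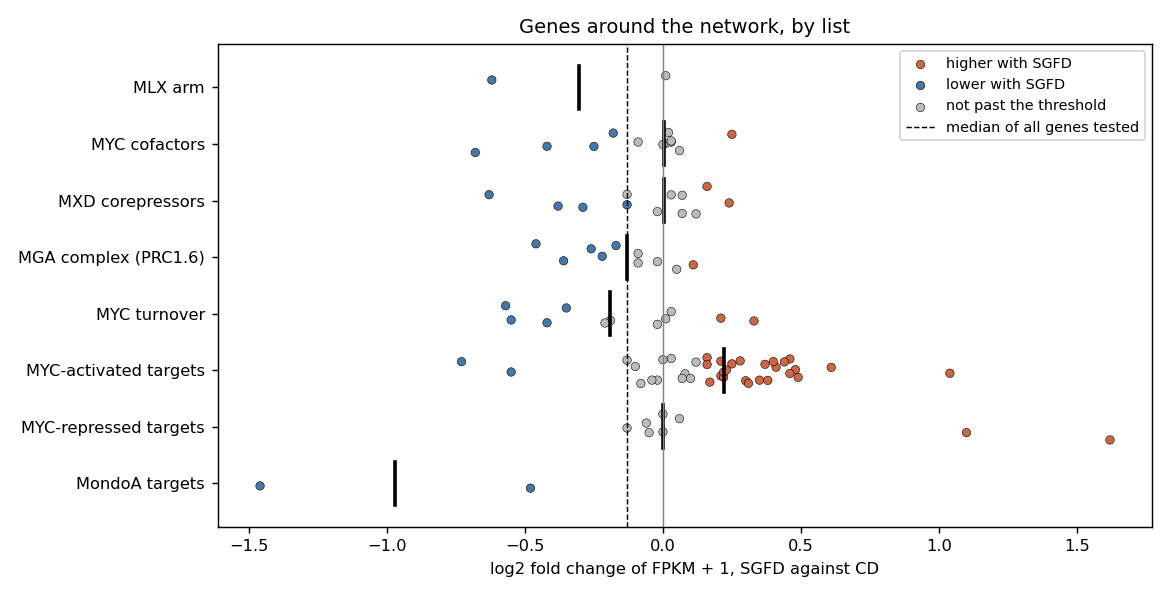
Log2 fold change of FPKM + 1 (x axis, SGFD against CD) of the tested genes of 8 lists, 1 point per gene, orange where higher and blue where lower at an adjusted p under 0.05; thick bars are list medians and the dashed line is the median of all tested genes, -0.13. Most points of the MYC-activated targets lie right of 0, with a median of 0.22, and both MondoA targets lie left of it.

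The E-box CACGTG, which reads the same on both strands, was searched in the RefSeq promoter windows of 300 bases around each start. Of the 9 members with an entry, 3 held it: Max, Mxd4 and Mnt, of which Mxd4 and Mnt fell and Max did not pass. Among the activated targets 7 of 31 with an entry held it, and Ldha and Nme1, the 2 of smallest p, are shown with them. The sequences are RefSeq's (GRCm38.p6), 5′ to 3′ on the gene's strand, with the E-box in capitals.
Max, chr12:76962246-76962271, minus strand: cccggcgcggtgagcccggtCACGTG
Mxd4, chr5:34187904-34187949, minus strand: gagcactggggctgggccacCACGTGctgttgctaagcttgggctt
Mnt, chr11:74830781-74830826, plus strand: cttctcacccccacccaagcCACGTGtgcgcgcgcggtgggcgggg
Nme1, chr11:93968029-93968074, minus strand: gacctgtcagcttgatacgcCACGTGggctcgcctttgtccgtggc
Ldha, chr7:46845639-46845781, plus strand: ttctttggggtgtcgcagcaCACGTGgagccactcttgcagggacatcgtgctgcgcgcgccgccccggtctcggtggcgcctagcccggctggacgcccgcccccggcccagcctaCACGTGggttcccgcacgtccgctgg
The E-box of Mxd4 begins 219 bases before the start its window is set around, and Ldha holds 2, at 145 and 48 bases before that start. The windows of Max and Mnt are set around starts that lie inside the gene spans given above, so no distance is given for them. Nme1 has another window with an E-box of its own. The sequence was in 7.15% of all promoter windows and in 12.2% of the 8278 tested genes with an entry. Of the 1014 tested genes with it 18.8% rose and 39.6% fell, and of the 7264 without it 17.5% rose and 42.1% fell, both near the shares of all tested genes. Ldha rose from 286 ± 11.6 to 437 ± 29.7 FPKM and Nme1 from 105 ± 3.71 to 148 ± 10.5 FPKM.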

How the data were processed

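Per the labels' protocols, the 6 libraries were made with a stranded kit for mRNA. The deposited tables hold 1 value per gene symbol and library, taken as FPKM from the values themselves because neither labels nor headers name a unit. Tools listed in the submitters' processing notes are HISAT2, StringTie and fastp, with mm10 and GRCm38 as builds; their roles and versions are not given in the sources used here. The values were first scaled by a relative library size fitted to them. For 99.98% of rows above 0, the 6 scaled values were whole multiples of 1 step within 0.02, which gave the fragment numbers. Rows above 0 in only 1 library meet this by construction. The 4 rows that share a name were left out. The main test was limma 3.58.1 in R 4.3.3 on log2(FPKM + 1), with trend and robust settings, for genes that reached 1 FPKM in 3 libraries or more. It was two-sided and Benjamini-Hochberg adjusted at 0.05. The test was also run on simulated data in which a far smaller share of genes changed than the 59.4% called here. That run therefore does not cover a comparison with this many calls. Transcript lengths came from GENCODE M21 (96.9% of tested genes), and coordinates and promoters from RefSeq GRCm38.p6; 9 of 10 members had a promoter entry. Named genes were the 10 members, the 2 of smallest p per direction of each list, genes of lists of up to 3, and the 3 genes nearest in course to members changed by at least 0.5; genes outside this rule are said to be, and some genes it names are not reported here. Members, lists and tests were chosen with earlier results of these data known. Alternatives were other filters, pseudocounts, scalings, weights, variance models and thresholds, a replicate block and leaving out each library.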

Additional observations from a re-analysis of the deposited data

How the results depend on the processing

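Myc, Mycn, Mxd4, Mnt and Mga kept their direction and stayed past the threshold under each of 17 alternatives; the log2 fold change of Mycn ranged from -1.96 to -1.50 and that of Myc from -0.52 to -0.22. Mxd3 lost its call in 1, quantile normalization. After median-ratio scaling 1 member, Max, was higher (0.14), all genes split into 3169 higher and 2711 lower, and the network partners into 17 and 11. After quantile normalization 1 member, Mxd1, was higher, 2552 genes were lower, and 4 activated targets were lower in place of 2. After scaling to one FPKM total 1030 genes were higher, 7 activated targets were lower, the partners split into 1 higher and 31 lower, and Tfdp1 went to -0.03. Activated targets that fell numbered 1 with a filter of 5 FPKM and 4 with array quality weights, and 2 partners rose at a threshold of 0.01. Leaving out 1 library at a time gave 1 to 4 activated targets lower (1 without CD replicate 1, 2 or 3, and 4 without SGFD replicate 2). It gave 2 to 4 partners higher (2 without CD replicate 3), and kept 6 members lower throughout. With the filter of 5 FPKM or without a CD library, Tert no longer passed the filter. Of the 36 activated targets then tested, Ccnd2 was the 1 that fell. The cause of the other differences was not tested. With FPKM times the longest annotated transcript length the Mycn share differed by -6.57 percentage points in place of -5.85. The MYC to antagonist ratio differed by 0.00691 in place of -0.0877. This weighting also changes the level of the ratio, so its 2 differences are not on 1 scale. Libraries of the same replicate number did not deviate together (correlations -0.007, -0.227 and -0.133), and no library correlated best with its own number. With the replicate block 6 members were lower and 0 higher, and 4085 genes were lower and 1704 higher. The 9 to 28 fragments per library limit what can be said of Mycl.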
